A study of Mus musculus with 24 samples.

Results

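Immunoglobulin heavy chain V segments (Ighv) are the gene pieces that encode most of the variable domain of an antibody heavy chain. All features of a deposited mouse H3K27Ac table whose symbol is Ighv, a family number and a hyphen were taken, which gave 120 segments of 27179 features, in 16 V families. RefSeq places all 120 on chromosome 12 of GRCm38, the assembly of mm10, between positions 113578504 and 116009954, at spans of 282 to 487 bp. They are part of the 183 Ighv entries of that gene table. The Ighv8 family was chosen by its measured values, the FFPE minus Frozen difference of log2 CPM (read counts scaled to library size), in which its members were lower in FFPE. Every FFPE to Frozen value below therefore describes that choice and is not a test of it.

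H3K27Ac, acetylation of lysine 27 on histone H3, marks active promoters and enhancers and was measured by chromatin immunoprecipitation and sequencing. FFPE organs were fixed in 10% formalin, embedded in paraffin and extracted at 95 °C for 20 min, and Frozen organs were flash frozen and crosslinked in 1% formaldehyde for 30 min. Groups are brain, heart, kidney and liver FFPE, set against brain, heart, kidney and liver Frozen, with 1 table column for each of the 8. The labels give no strain, age, sex, genotype or animal, so a difference between the mice behind FFPE and Frozen tissue cannot be told apart from preservation. A column carries no replicate number and was treated as 1 library, so nothing within an organ has a replicate error.

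In developing B cells, RAG1 and RAG2 join 1 V, 1 D and 1 J segment into the exon of the heavy chain variable domain. In the mouse, the small proximal families such as Ighv5 and Ighv2 lie next to the D segments, and the large Ighv1 family fills the distal end, with Ighv8 segments scattered among it. Each V segment has its own promoter, which is active in B lineage cells. None of the 4 organs is a site of B cell development in the adult mouse.

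Total counts were 4404789 to 5743071 in FFPE libraries and 4713901 to 6164562 in Frozen libraries. Defining genes of each organ stood where the labels put them, with medians (log2 CPM) of 6.54 and 6.09 for 5 neuron genes in brain FFPE and Frozen, 6.14 and 6.36 for 5 cardiomyocyte genes in heart, 6.58 and 6.38 for 5 nephron genes in kidney and 7.26 and 7.84 for 5 hepatocyte genes in liver. These organs hold few B cells, and in bulk chromatin fewer marked cells and less mark per cell cannot be told apart.

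Reads over the V segments were sparse. A segment had a median of 67 counts summed over the 8 libraries, against 928 for all 26944 features with a count. The highest total was 144 counts, for Ighv1-67, and the lowest was 2 counts, for Ighv1-62-1, with 31 counts in the next lowest segment. By mean level (log2 CPM) all 120 lay in the lowest 25% of tested features. A single library gave a median of 5 to 8 counts per segment in FFPE and 5 to 13 in Frozen. A count of 0 allows up to 3 counts, or 0.57 to 0.697 CPM in an FFPE library and 0.52 to 0.658 CPM in a Frozen library, and this floor covers counting error only. V segments are similar copies of each other, and the counting of reads with several positions is not given here, so the value of a single segment is uncertain.

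Summed over the 120 segments, brain FFPE had 980 counts against 1690 in brain Frozen, and kidney FFPE had 894 against 1728 in kidney Frozen. Heart FFPE had 673 counts against 708 in heart Frozen, and liver FFPE had 835 against 1080 in liver Frozen. On the CPM scale, which uses the library sizes the authors scaled to, these are 204 against 293 in brain, 170 against 306 in kidney, 156 against 155 in heart and 183 against 191 in liver. The FFPE to Frozen ratio of CPM was 0.70 in brain (exact Clopper-Pearson 95% interval 0.64 to 0.75), 0.55 in kidney (0.51 to 0.60), 1.01 in heart (0.90 to 1.12) and 0.96 in liver (0.87 to 1.05), with intervals for counting error only. Brain and kidney thus had lower sums in FFPE, while the intervals of heart and liver include equal sums. The direction in heart depended on mitochondrial reads when counts were instead scaled to the library total: with them the sum was 117 CPM in FFPE and 147 CPM in Frozen, and without them 183 CPM in FFPE and 156 CPM in Frozen. In liver this scaling put FFPE higher both ways, at 190 CPM in FFPE and 175 CPM in Frozen with mitochondrial reads and 217 and 185 CPM without.

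**Figure D1:**
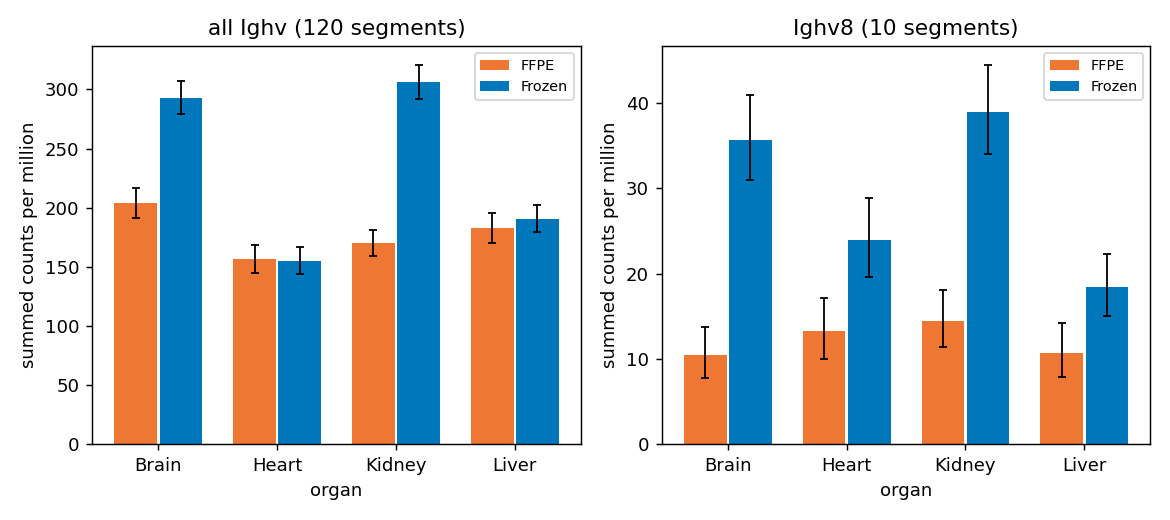
Summed H3K27Ac level (CPM) over the 120 Ighv segments (left) and the 10 Ighv8 segments (right) in each organ, FFPE in orange and Frozen in blue, 1 table column per bar, with exact Clopper-Pearson 95% counting intervals. The sum of all segments is lower in FFPE in brain and kidney, and the Ighv8 sum is lower in FFPE in all 4 organs.

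The Ighv8 family had 10 members in the table, with 232 counts in FFPE and 639 in Frozen libraries. Brain FFPE had 50 counts against 206 in brain Frozen, heart FFPE 57 against 109, kidney FFPE 76 against 220 and liver FFPE 49 against 104. Brain had a CPM ratio of 0.29 (0.21 to 0.40), heart 0.55 (0.39 to 0.77), kidney 0.37 (0.28 to 0.48) and liver 0.58 (0.41 to 0.83). All 4 organs were thus lower in FFPE, with lower ratios in brain and kidney than in heart and liver. The brain interval overlaps that of heart, and the kidney interval those of heart and liver. The difference between organs was not tested. Without Ighv8, the other 110 segments had CPM ratios of 0.75 for brain, 0.58 for kidney, 1.09 for heart and 1.00 for liver.

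Ighv8-14, at chr12:115808427-115808727, had 3, 2, 3 and 7 counts in brain, heart, kidney and liver FFPE, against 38, 11, 35 and 15 in the same organs Frozen. No FFPE library reached the lowest Frozen library, and the difference was -2.32 ± 0.53 (FFPE minus Frozen, log2, limma SE over 4 organs). Ighv8-11, at chr12:115567149-115567449, had 5, 1, 8 and 3 counts in FFPE against 19, 13, 23 and 15 in Frozen, again without overlap, at -1.96 ± 0.53. Ighv8-5 had 5, 8, 10 and 5 counts in FFPE against 38, 11, 36 and 14 in Frozen, at -1.42 ± 0.47. Its groups did not overlap on the CPM scale either, although the heart libraries, with 8 and 11 counts, lay close together.

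Ighv8-12 had 3, 0, 16 and 7 counts in FFPE and 21, 11, 36 and 16 in Frozen, at -2.17 ± 0.57. The groups overlapped through kidney FFPE, while each organ was lower in FFPE than its own Frozen library. Ighv8-13 had 9, 0, 1 and 5 counts in FFPE and 13, 8, 15 and 15 in Frozen, at -2.18 ± 0.64, and Ighv8-8 had 6, 2, 7 and 7 against 28, 5, 29 and 14, at -1.36 ± 0.51. Both were lower in FFPE in all 4 organs, by the least in brain for Ighv8-13 and by the least in liver for Ighv8-8. The fitted differences of Ighv8-12 and Ighv8-13 depend on the pseudocount, since their heart FFPE libraries had 0 counts, and with a pseudocount of 2 the Ighv8 median went to -1.20 in place of -1.39.

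The remaining 4 members differed less. Ighv8-2, the member nearest the D segments, had 1, 8, 6 and 1 counts in FFPE and 15, 9, 8 and 1 in Frozen, at -0.79 ± 0.67, a gap carried by brain. Ighv8-9 had 4, 7, 7 and 5 counts against 10, 13, 18 and 5, at -0.65 ± 0.53, and Ighv8-4 had 8, 4, 3 and 2 against 11, 3, 9 and 3, at -0.31 ± 0.62. Ighv8-6 stood apart with 6, 25, 15 and 7 counts in FFPE and 13, 25, 11 and 6 in Frozen, at 0.08 ± 0.47. Its highest libraries were the 2 hearts, and its FFPE and Frozen values were alike.

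**Figure D2:**
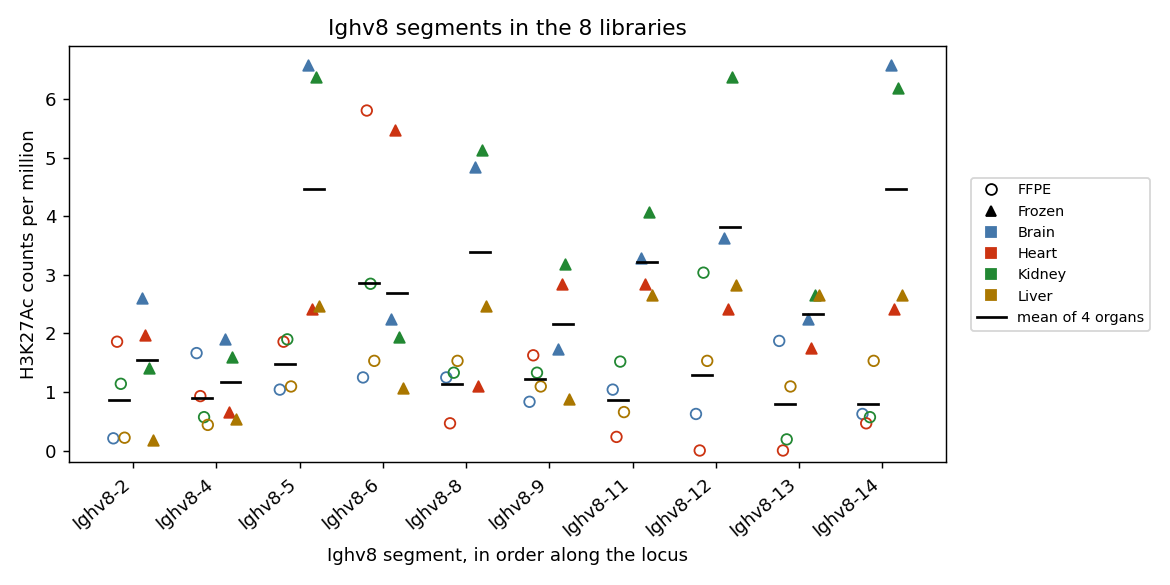
H3K27Ac level (CPM) of the 10 Ighv8 segments in the 8 libraries, in order along the locus; open circles are FFPE, filled triangles Frozen, colours the organs and black lines the mean of 4 organs. The Frozen means lie above the FFPE means for all segments but Ighv8-6, whose heart libraries are the highest in both preservations.

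The 4 lowest members, Ighv8-11 to Ighv8-14, are also the 4 most distal ones. Spans lie within 293 to 302 bp in the whole family, and Ighv8-6 has the same span, 301 bp, as these 4 members. Per length, Ighv8 held the highest family median in Frozen tissue, 9.80 CPM per kb of RefSeq span, followed by 8.18 for the single Ighv15 segment. In FFPE its median was 3.46 CPM per kb, above only Ighv15 at 3.22 among the 16 families. Since Ighv8 was chosen by the difference of these same values, nothing is read from its ranks. Over all 120 segments the medians were 4.41 CPM per kb in FFPE and 5.44 in Frozen.

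Between families the FFPE minus Frozen difference ran in both directions. The median was -1.39 (log2) over the 10 Ighv8 segments, 9 of them below 0, and -0.53 over the 60 Ighv1 segments, 46 of them below 0. Ighv6 lay between these with -0.67 over 5 segments, and Ighv2 and Ighv9 both had -0.22, over 9 and 4 segments. Near 0 were Ighv5 at -0.12 over 10 segments and Ighv3 at -0.06 over 6. Ighv14 had 0.85 over 4 segments, 3 of them above 0, and 149 counts in FFPE against 126 in Frozen. Families of 1 or 2 segments ranged between -2.09 for Ighv15 and 1.58 for Ighv16. The Ighv1 sum had CPM ratios of 0.67 in brain (0.60 to 0.75) and 0.53 in kidney (0.47 to 0.60), both below 1. The intervals of heart, at 1.10 (0.94 to 1.28), and liver, at 1.01 (0.89 to 1.15), include 1.

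**Figure D3:**
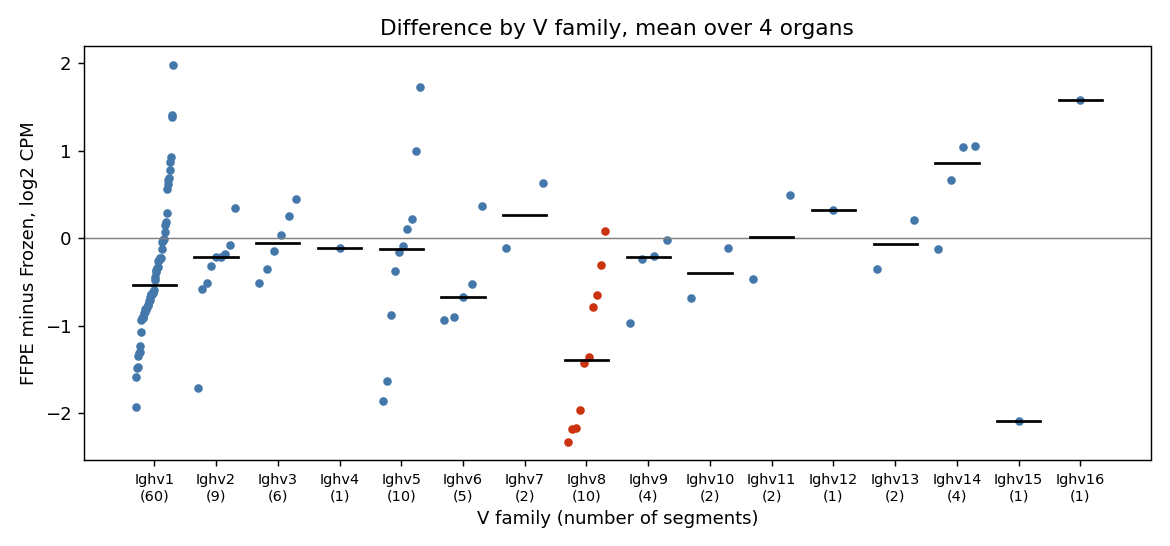
FFPE minus Frozen difference (log2 CPM, mean over 4 organs) of each Ighv segment by V family, spread sideways by rank, with black lines at the family medians and Ighv8 in red. Ighv8 has its median at -1.39 and Ighv1 at -0.53, while Ighv14 has its median at 0.85.

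Over all 120 segments the median difference was -0.35 (log2), against 0.02 over all 26944 tested features. The medians by organ were -0.49 for brain, 0.08 for heart, -0.90 for kidney and -0.27 for liver. The median over segments was -0.07 without either kidney library and -0.29 without either brain library. In the limma fit of preservation and organ, 6 of 120 segments passed an adjusted p of 0.05, all lower in FFPE, where 3.91% of all features passed and 1.91% passed as lower. These were Ighv8-11 to Ighv8-14 with Ighv5-6 and Ighv5-9, and since the contrast was used to choose the family, nothing is read from the count. It was 1 without either kidney library, 2 without either heart library, 3 without liver Frozen and 10 without brain FFPE, 2 of these higher in FFPE. Differences of segments had SEs of 0.44 to 1.16 on the log2 scale, with a median of 0.56, against 0.23 for all features.

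Of the 120 segments, 88 had a lower mean in FFPE, where 47.8% of all features did, and 19 were at least 2-fold lower, where 1.01% of all features were. Another 7 were at least 2-fold higher, where 3.65% were. In all 4 organs 21 segments were lower in FFPE (background 10.4%) and 4 were higher (11.8%). All FFPE libraries lay below all Frozen libraries for 8 segments (1.41%) and above them for 2 segments (3.07%). Of the 21 lower segments, 6 were Ighv8 and 10 were Ighv1.

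Organ by organ, with 1 table column on each side, lower segments in FFPE were 79 of 120 in brain, where 49.5% of all features were lower, and 92 in kidney, where 48.5% were. They were 55 in heart, with a background of 51.2%, and 69 in liver, with 47.9%. At least 2-fold lower in FFPE were 33 segments for brain (3.47% of all features), 30 for heart (5.22%), 58 for kidney (4.83%) and 23 for liver (7.4%). At least 2-fold higher were 11 brain values (4.93%), 29 heart values (11.1%), 7 kidney values (4.99%) and 31 liver values (11.5%). Heart and liver thus had many segments past 2-fold in both directions, at 5 to 8 counts per segment, and kidney had them almost all on the lower side.

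Outside Ighv8, the 3 lowest segments with at least 80 counts lie near the D segments. This cut is on the total over both preservations. Frozen counts alone reached it for Ighv5-6 (84), Ighv5-9 (97), Ighv1-64 (82) and Ighv1-54 (82), and within Ighv8 for Ighv8-5 (99) and Ighv8-12 (84). The cut thus favours segments high in Frozen, and nothing is read from which segments rank lowest. Ighv5-6, at chr12:113625508-113625801, had 4, 6, 3 and 6 counts in brain, heart, kidney and liver FFPE, against 24, 14, 26 and 20 in Frozen, at -1.86 ± 0.50. Ighv5-9 had 12, 3, 9 and 4 counts in FFPE against 29, 12, 32 and 24 in Frozen, at -1.63 ± 0.46, and Ighv2-6 had 7, 2, 9 and 2 against 14, 23, 14 and 17, at -1.71 ± 0.54. For these 3 segments no FFPE library reached the Frozen range on the CPM scale. They stand 5th, 7th and 10th of the 120 in order along the locus, and segments between them differed less, such as Ighv2-4 at -0.58 ± 0.54. With fewer counts and named after their values were seen, Ighv15-2 had 11, 0, 0 and 7 counts in FFPE against 21, 14, 15 and 2 in Frozen, at -2.09 ± 0.79, and Ighv1-72 stood at -1.93 ± 0.65. Neither lies near the D segments, and in liver Ighv15-2 was higher in FFPE. Among distal Ighv1 segments, Ighv1-64 had 10, 6, 5 and 3 counts in FFPE against 25, 20, 22 and 15 in Frozen, at -1.59 ± 0.48, without overlap. Ighv1-54 had 2, 3, 14 and 7 against 26, 11, 37 and 8, at -1.48 ± 0.53, and its liver libraries were near each other.

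At the other end, Ighv1-23 had 14, 5, 26 and 20 counts in FFPE against 13, 4, 14 and 7 in Frozen, at 0.87 ± 0.48, the highest difference among the 35 segments with at least 80 counts. The next in that set was Ighv1-42 at 0.28 ± 0.54, and the remaining segments of the 10 highest ran between Ighv8-6 at 0.08 and Ighv2-2 at -0.18. Larger positive differences came from segments with fewer counts, named here after their values were seen. Ighv1-49 had 8, 8, 10 and 12 counts in FFPE and 6, 0, 4 and 4 in Frozen, at 1.98 ± 0.64, and Ighv16-1 had 6, 9, 11 and 8 against 1, 4, 7 and 2, at 1.58 ± 0.61. For both, every FFPE library lay above every Frozen library in CPM. Ighv1-49 lies between Ighv8-4 and Ighv8-5 in the table's order, so neighbouring segments differed in direction. The 5 segments with the most counts were Ighv1-67 with 144, Ighv8-5 with 127, Ighv5-9 with 125, Ighv1-55 with 123 and Ighv1-59 with 121. Their differences were -0.48 ± 0.46, -1.42 ± 0.47, -1.63 ± 0.46, -0.71 ± 0.54 and -0.63 ± 0.47 in that order.

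Position and difference went together weakly. In groups of 30 segments in order along the locus, starting next to the D segments, the median differences were -0.14, -0.35, -0.37 and -0.63 (log2). Segments lower in all 4 organs numbered 4, 2, 5 and 10 in the same groups. Across the 120 segments, which share libraries and partly reads, the Spearman correlation of order and difference was -0.23, and that of total count and difference was -0.33. The total holds 5206 Frozen and 3382 FFPE counts over all segments. A segment high in Frozen thus has both a larger total and a lower difference, so nothing is read from the -0.33. In the stretch between Ighv8-4 and Ighv8-14, the 9 Ighv8 segments had a median of -1.42 with 216 counts in FFPE and 606 in Frozen. The 23 Ighv1 segments of that stretch had a median of -0.63 with 652 counts in FFPE and 1171 in Frozen. In heart the same medians were -1.05 for Ighv8 and -0.19 for Ighv1, and in kidney they were -1.37 and -1.27. Between Ighv8-11 and Ighv8-14, where the 4 Ighv8 segments had a median of -2.17, the 8 interleaved Ighv1 segments had -0.56. Of the annotated neighbours of Ighv8 segments, 28 had a value, with a median of -0.61 and a range between -1.93 for Ighv1-72 and 1.98 for Ighv1-49. Of these 28, 24 lay below 0, where 47.8% of all features did. None passed the limma threshold, which 3.91% of all features passed. At that share few or none of 28 would pass, so nothing is read from it. After quantile normalization the neighbours Ighv1-54, Ighv1-64 and Ighv1-72 were called lower in FFPE.

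**Figure D4:**
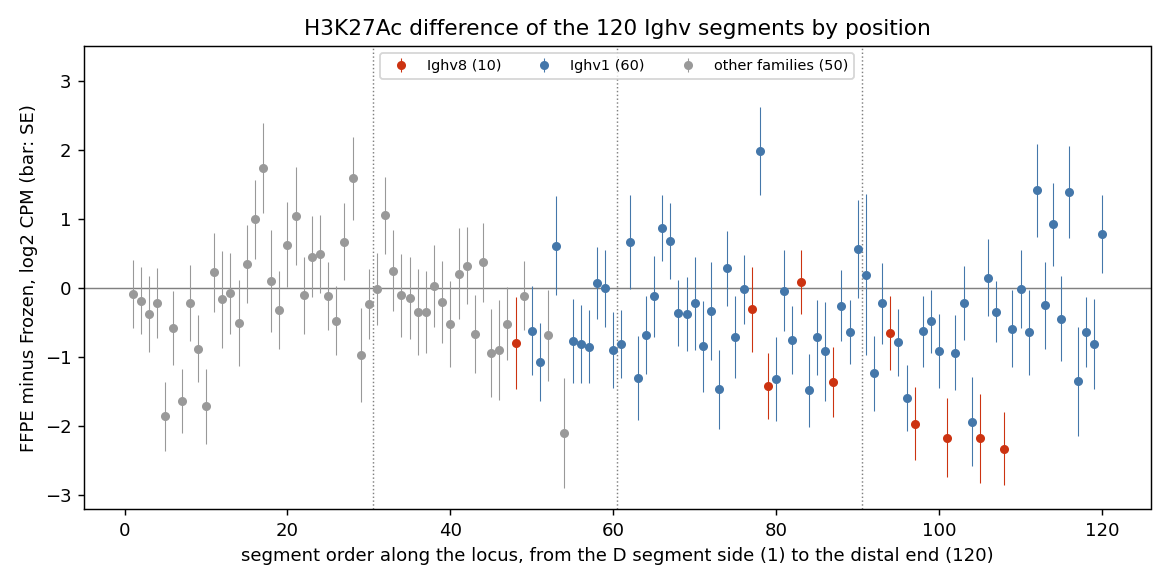
FFPE minus Frozen difference (log2 CPM, bars are limma SEs) of the 120 Ighv segments against their order along the locus, from the D segment side to the distal end, with dotted lines between groups of 30. Ighv8 segments (red) reach their lowest values, -1.96 to -2.32, near the distal end, among Ighv1 segments (blue) with a median of -0.56 in that stretch.

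Genes on both sides of the V segments did not pass the test of preservation. The 5 nearest genes on the constant gene side, Mta1, Crip2, Crip1, Tedc1 and Tmem121, had differences of -0.04 to 0.30 (log2), and the 5 beyond the distal V segments, Zfp386, Vipr2, Wdr60, Esyt2 and D430020J02Rik, had -0.27 to 0.41. Adam6a and Adam6b, sperm protein genes that lie inside the locus, had a median of -0.18 and the 8 heavy chain constant genes 0.19. The 10 D segments had -0.16 and the 4 J segments 0.20. Limma called none of these 34 features, flanking genes included, where 3.91% of all features passed. At that share few of 34 would pass. Of them, 0 stood at an unadjusted p under 0.05, where 16% of all features did. By organ, the D segment medians were -0.90 for brain, 0.08 for heart, -1.30 for kidney and 0.31 for liver. Ighv had -0.49, 0.08, -0.90 and -0.27 in that order. At least 2-fold lower in FFPE were 2 of the 10 D segments, where 1.01% of all features were. With a median total of 10.5 counts per D segment, nothing is read from these 2. D and J segments had only 8 to 25 counts in sum in any library.

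Other receptor loci give V segments of similar read number. Igkv, the V segments of the kappa light chain, had a median total of 68 counts, and Trav, those of the T cell receptor alpha chain, had 69.5. The median FFPE minus Frozen difference was -0.35 for Ighv, 0.19 for 103 Igkv, 0.38 for 116 Trav and -0.09 for 24 Trbv segments. Segments at least 2-fold lower in FFPE made up 15.8% of Ighv, 3.88% of Igkv and 2.59% of Trav, where 1.01% of all features were. In kidney, the medians were -0.90 for Ighv, -0.43 for Igkv and 0.10 for Trav, and in liver -0.27, 0.31 and 0.70. The smaller sets ran otherwise: 5 Trdv segments had medians of -0.51 for brain, -0.40 for heart, -1.01 for kidney and 1.37 for liver, below Ighv in all but liver. Over the 4 organs together Trdv had 0.27, 7 Trgv segments 0.79 and 3 Iglv segments 0.20. These values are a description, and the difference between loci was not tested.

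**Figure D5:**
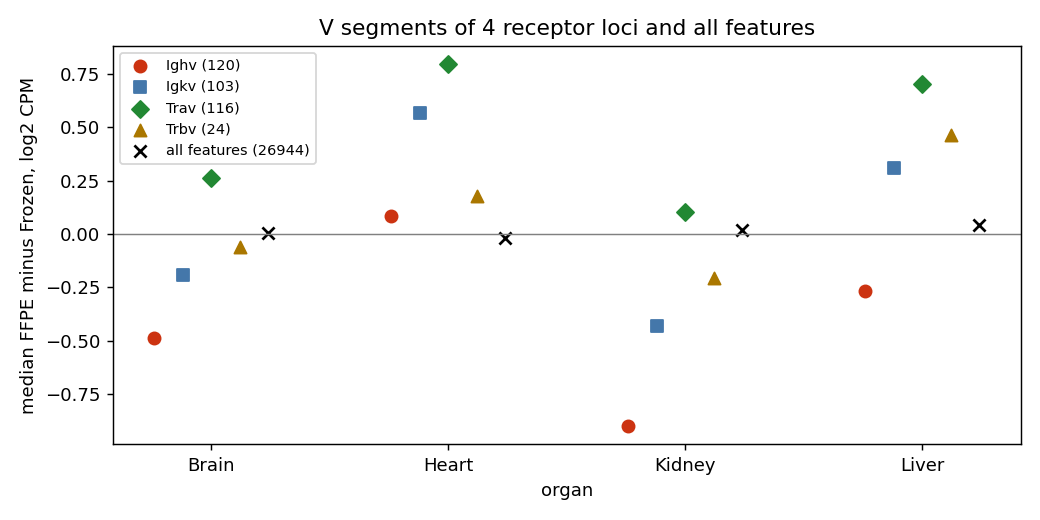
Median FFPE minus Frozen difference (log2 CPM) in each organ for V segments of the heavy chain (Ighv), kappa chain (Igkv) and T cell receptor alpha (Trav) and beta (Trbv) loci, and for all tested features; numbers of features are in the legend. Of the 4 loci plotted, Ighv has the lowest median in each organ, from -0.90 in kidney to 0.08 in heart.

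None of 16 B cell genes, among them Cd79a and Ms4a1, passed the limma test of FFPE against Frozen, and their median difference was 0.15 (log2). Of all features 3.91% passed, so few or no calls would come from lists as short as those here. Bank1 and Fcrla stood at an unadjusted p under 0.05, both higher in FFPE, where 16% of all features did. The summed level of the 16 genes was 298 to 348 CPM in FFPE and 225 to 306 CPM in Frozen libraries. None of the 16 was at 0 counts in any library. Neither did any of 8 plasma cell genes, with a median of 0.16, or of 12 T cell genes, with 0.06. Of the 10 genes of V(D)J recombination, among them Rag1, Rag2 and Dntt, none passed, with a median of 0.05, and none of the 13 regulators of the locus and the B lineage did, with 0.14. At an unadjusted p under 0.05 these 4 lists held Cd8a, higher in FFPE, and Xrcc4 and Ctcf, lower in FFPE. Among these regulators are Pax5, which is needed for contraction of the locus, and the octamer factor Pou2f2, whose motif is part of V promoters.

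Organs were compared over both preservations, a contrast that had no part in choosing the segments. Set against the average of the remaining organs, the 120 segments had median differences of 0.45 (log2) for brain, -0.57 for heart, 0.34 for kidney and -0.07 for liver, against 0.04, -0.04, -0.02 and -0.06 for all features in that order. Igkv segments had medians of 0.70, -0.56, 0.20 and -0.28, and Trav segments 0.42, -0.50, 0.31 and -0.11, so V segments of all 3 loci were low in heart. In Frozen tissue the Ighv sums separated widely, with 293 CPM for brain, 155 for heart, 306 for kidney and 191 for liver. In FFPE they lay between 156 CPM in heart and 204 in brain.

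In heart, 9 of 120 segments fell and 1 rose (limma, adjusted p under 0.05), where 7.31% of all features fell and 9.42% rose. The share of segments that fell, 7.5%, is near that background. Ighv5-12 fell by 2.17 ± 0.56 (log2, limma adjusted p = 0.0058), with 1 count in heart FFPE and 7 in heart Frozen, against 12 to 26 in the other 6 libraries. Ighv14-2 fell as well (limma adjusted p = 0.0125), with 2 and 4 counts in heart FFPE and Frozen. Ighv8-12 fell by 2.22 ± 0.66, with 0 and 11 against 3 to 36 in the other 6 libraries. Its heart Frozen library lay above brain FFPE, at 3 counts, and liver FFPE, at 7. Ighv8-12 was not called in heart with a pseudocount of 2, after quantile normalization or with no variance trend. Nor was it called there without heart FFPE, which had its count of 0, or without kidney FFPE. Ighv1-26 fell by 1.55 ± 0.55, with 6 counts in heart FFPE and 3 in heart Frozen, against 8 to 33 elsewhere. The other falls, in Ighv1-34, Ighv1-37, Ighv1-50, Ighv1-81 and Ighv1-85, were between 2.11 and 2.80 and rest on heart libraries with 0 to 8 counts.

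The segment that rose in heart was Ighv8-6, by 1.67 ± 0.54 (limma adjusted p = 0.0293). Both heart libraries had 25 counts, against 6 to 15 in the other 6 libraries, so heart did not overlap with them. This member of Ighv8 thus ran against the family, whose median in heart was -0.52, and against all 120 segments. It was not called without heart FFPE, heart Frozen, kidney Frozen or brain FFPE. Calls in heart numbered 4 when either the Frozen heart or the Frozen kidney library was left out.

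In liver 4 of 120 segments fell and none rose, where 9.73% of all features fell and 11.2% rose. Ighv1-19-1 fell by 3.03 ± 0.78 (limma adjusted p = 0.00428), with 0 counts in liver FFPE and 1 in liver Frozen, against 3 to 14 in the other 6 libraries. Ighv2-3 fell by 1.90 ± 0.59, with 2 and 4 counts in liver FFPE and Frozen against 6 to 19 elsewhere. Ighv8-2 fell by 2.21 ± 0.77, with 1 count in each liver library and 6 to 15 in 5 of the other 6, and Ighv1-80 fell by 2.03 ± 0.69, with 2 and 1. Liver lay below all other libraries for 3 of the 4, while Ighv8-2 also had 1 count in brain FFPE. The number called was 1 without either liver library, and 2 without brain Frozen, heart FFPE or either kidney library.

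No segment passed the limma threshold in brain, where 22.4% of all features passed and 8.73% rose, or in kidney, where 5.22% passed and 3.19% rose. At unadjusted p under 0.05 brain had 7 of 120 segments, all higher, where 33.8% of all features passed. Kidney had 6, of which 4 were higher and 2 lower, where 15.3% of all features passed. Both counts lie below those shares. The lowest adjusted p of a segment was 0.078 in brain and 0.108 in kidney, in kidney for Ighv8-12, which stood at 1.85 ± 0.66 with 16 counts in kidney FFPE and 36 in kidney Frozen. Without heart FFPE brain had 5 called segments, all higher, without heart Frozen it had 3, and without kidney Frozen 2. B cell genes showed no common direction between organs: Cd79a and Spib, a gene of the antibody receptor complex and a B cell transcription factor, rose in heart, by 1.06 ± 0.29 and 0.77 ± 0.22 (limma adjusted p under 0.05), and no B cell gene fell there. Spib also rose in kidney, by 0.87 ± 0.22, and fell in liver by 1.81 ± 0.22, and Fcer2a, a low-affinity IgE receptor, rose in brain by 0.79 ± 0.28. Their part in the organ differences of V segments was not tested.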

How the data were processed

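Per the submitters' processing notes, Bowtie2, featureCounts, limma and mm10 were used; no version, counted part of a gene or merging of replicates is given there. The labels describe 24 samples, 16 H3K27Ac libraries (2 per group) and 8 inputs. The deposited table has 8 columns, 1 per H3K27Ac group, and inputs were not analysed here. Its values are log2 CPM scaled by the authors: in each column 100% of values returned whole counts within 0.001 as log2 of the count plus 0.5. Counts state depth and intervals; tests used the deposited log2 values.

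Features at 0 in all libraries (235) were removed and 26944 tested two-sided with limma 3.58.1 in R 4.3.3 (lmFit, eBayes with a variance trend, Benjamini-Hochberg over all features), in a model of organ and preservation with 3 residual degrees of freedom. Organs stand in for replicates between FFPE and Frozen, and the FFPE and Frozen columns do so between organs. The p-values thus rest on the spread left after both terms, and not on a spread between animals. The planned replicate columns were not in the form assumed. The code was tested on simulated data. Positions and spans come from RefSeq, GRCm38; all 120 segments matched. Members and lists were chosen with earlier results of these data known. Named were all Ighv8 members and their neighbours, segments called between organs, the 10 lowest and 10 highest preservation differences at 80 or more counts, and the 5 with the most counts. The rule for segments at 0 in 1 preservation found none. Alternatives were quantile normalization, equal median and spread, no variance trend, a filter, a pseudocount of 2 and leaving out each library.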

Additional observations from a re-analysis of the deposited data

Results flagged for a closer look

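Some small families were picked out because their FFPE to Frozen ratio of summed CPM had a counting interval above 1 in some organs and below 1 in another; the difference between organs was not tested. The single Ighv4 segment had a ratio of 3.30 in liver (1.23 to 10.3) and 0.30 in brain (0.07 to 0.93). The 2 Ighv7 segments had 2.22 in brain (1.08 to 4.74), 3.92 in liver (1.51 to 12) and 0.48 in kidney (0.25 to 0.88). The 2 Ighv10 segments had 3.60 in heart (1.28 to 12.5) and 0.45 in kidney (0.22 to 0.88). Each of these ratios rests on 4 to 36 counts per library. No library stood apart by Dixon's test among 24 sets of 4 organs, for Ighv8 segments and the sums, where chance alone marks about 1 in 20.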

How the results depend on the processing

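The limits are the low counts of the segments and 1 table column per group. Between FFPE and Frozen, 12 segments were called after quantile normalization against 6, and the median went to -0.74 (log2). Leaving out single libraries gave 1 to 10 calls and medians of -0.56 to -0.066, with 3 calls without liver Frozen. Of the 10 Ighv8 segments, 9 or 10 stayed below 0 in each setting that held all of them. Between organs, quantile normalization gave 1 call in brain, 5 in heart and 2 in liver, and no variance trend gave 2 in brain and 6 in heart. A minimum of 80 counts, added after seeing the data, gave 4 in heart and 1 in liver. Leaving out libraries gave 0 to 5 calls in brain (3 without heart Frozen), 4 to 14 in heart, 0 to 1 in kidney and 1 to 4 in liver. Ighv1-85 in heart turned to 0.019 without heart FFPE, which had its count of 0. The causes were not tested. The mean log2 ratio of shares was -0.51, -0.25 without mitochondrial genes. The filter on the lowest 25% of features left no segment. Of the values of named segments, 376 kept their side of the threshold or stayed within 1 SD, 97 were no longer called, 10 became called and 37 moved. The organ term pairs FFPE and Frozen columns of 1 organ in each fit. By replicate number, no paired analysis was possible because the columns carry none.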
